A study of Mus musculus with 2 samples.

Results

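Serpins form a large family of proteins with a common fold, many of which inhibit serine proteases by offering a flexible loop, the reactive centre loop, as bait. The protease cuts the loop and becomes trapped in a covalent complex, so the inhibitor is used up in the act. In liver, hepatocytes secrete large amounts of serpins into plasma, where they restrain neutrophil elastase and the proteases of coagulation, fibrinolysis and complement, while a few members carry hormones instead of inhibiting a protease. The genes described here are those whose symbol in the deposited TPM table is Serpin, a clade letter and a number, without names that carry -ps. The rule gave 62 of the 24054 genes listed, and it used names only, no measured value. TPM is a length-corrected measure of the share of the transcript pool that a gene holds, and so allows levels of different genes to be compared. Where a pair of values is given without names, the KO library comes first.

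Liver RNA of male Pgrmc1 KO mice (Pgrmc1 -/Y) and male WT mice, all on a C57BL/6 strain and 8 to 12 weeks old, was compared to ask how loss of Pgrmc1 alters the liver transcriptome. The KO is a whole-body deletion, made by crossing mice with a floxed allele of this X-linked gene (exons 1 and 2, on C57BL/6N) to Sox2-Cre mice, whose Cre acts in the early embryo. The loss is thus not limited to the liver. For each genotype, RNA of 5 mice was pooled in equal masses of 2.5 μg and sequenced as 1 library per genotype. With 1 pooled library in each group, no difference between the libraries could be set against a spread between mice, and no p-value is given.

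The libraries held an estimated 22086688 reads in KO against 29710410 in WT on the 16318 genes of the second deposited table. Pgrmc1, the deleted gene, was at 0.68 TPM in KO against 949.49 TPM in WT. All 12 hepatocyte markers of a fixed list were above 1 TPM, with a summed level of 113714 TPM in KO against 117591 in WT, and the 8 exocrine pancreas markers summed to 1.56 and 1.21 TPM. Lymphocyte markers summed to 9.56 TPM in KO against 9.82 in WT, bile duct markers to 66.57 and 70.42, and platelet and megakaryocyte markers to 6.77 and 4.94. In bulk RNA, fewer cells of a type and less RNA per cell cannot be told apart.

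The Serpina genes lie mostly side by side. On chromosome 12, 23 of the 62 members sit between positions 103616675 and 104414334 of GRCm38 (the mm10 assembly), and the clade B genes lie on chromosome 1 (12 members) and chromosome 13 (15 members). Humans have a single gene for alpha-1-antitrypsin and mice several copies, which is why their sequences are shown first. In coding sequence, Serpina1a to Serpina1e were 96.3% to 98.5% identical to each other. Of 86 variable positions among 1239 aligned coding bases, 18 fell in the most variable stretch of 60 bases, against an average of 4.2 per 60 bases. The stretch was picked for its count, so it lies above the average by choice. This stretch, bases 1101 to 1160 of the coding sequence in each copy, encodes part of the reactive centre loop. Each line gives the GENCODE M21 transcript on the minus strand of chromosome 12 of GRCm38, written 5′ to 3′, and capitals mark the bases at which the copies differ.
Serpina1a (chr12:103853757-103853816): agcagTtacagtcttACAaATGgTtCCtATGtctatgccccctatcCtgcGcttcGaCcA
Serpina1b (chr12:103728324-103728383): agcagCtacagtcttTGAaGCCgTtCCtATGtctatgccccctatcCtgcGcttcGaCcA
Serpina1c (chr12:103895094-103895153): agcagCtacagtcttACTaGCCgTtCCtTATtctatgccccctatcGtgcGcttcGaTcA
Serpina1d (chr12:103763762-103763821): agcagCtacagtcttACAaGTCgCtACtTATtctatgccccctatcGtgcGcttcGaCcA
Serpina1e (chr12:103947100-103947159): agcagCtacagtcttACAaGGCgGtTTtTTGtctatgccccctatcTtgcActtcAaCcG

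Because the rest of the coding sequence is nearly the same, many reads cannot be assigned to 1 copy by sequence. Of all 100-base windows of its transcript, Serpina1a shared 61.0% with another gene, Serpina1c 58.5%, Serpina1d 29.3%, Serpina1b 20.6% and Serpina1e 14.8%. These shares depend on which transcript is annotated, and a read pair spans more than 100 bases. The program used by the authors (RSEM) divides such reads between copies by estimation, so the sum of the copies is less affected by this step than the level of each copy.

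The Serpina3 copies stand in for a single human gene, alpha-1-antichymotrypsin, and have diverged further. Serpina3k, Serpina3m and Serpina3n were 82.9% to 91.7% identical in coding sequence, and Serpina3k shared 4.85%, Serpina3m 6.09% and Serpina3n 0.204% of its 100-base windows with another gene. Their most variable stretch, picked in the same way, also encodes part of the reactive centre loop. It had 26 of 60 bases variable, against an average of 12.1 per 60 bases. It is shown in the same way, on the plus strand. The first bases, in lower case, encode the hinge of the loop and are alike in these copies.
Serpina3k (chr12:104345267-104345326): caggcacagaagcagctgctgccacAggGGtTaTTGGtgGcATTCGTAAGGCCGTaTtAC
Serpina3m (chr12:104393767-104393826): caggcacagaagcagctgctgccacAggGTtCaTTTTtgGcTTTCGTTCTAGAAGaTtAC
Serpina3n (chr12:104413446-104413505): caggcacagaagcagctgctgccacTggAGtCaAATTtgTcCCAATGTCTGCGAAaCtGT

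Ahead of the genes, the 5 Serpina1 promoters shared an unbroken run of 59 bases that no other promoter in the table of RefSeq promoters (GRCm38.p6) held. It is shown because it contains, in capitals, GTTAAT, the letters of one arm of the palindrome bound by HNF1, a hepatocyte transcription factor known for its binding to the alpha-1-antitrypsin promoter.
Serpina1a to Serpina1e, shared run: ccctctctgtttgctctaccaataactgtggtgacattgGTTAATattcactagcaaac
The run lies on the minus strand at chr12:103863621-103863679 for Serpina1a, chr12:103738196-103738254 for Serpina1b, chr12:103904958-103905016 for Serpina1c, chr12:103773630-103773688 for Serpina1d and chr12:103956956-103957014 for Serpina1e. Promoters here are windows of 250 bases before to 50 after an annotated start, and in Serpina1d the run reaches past that start. Of the 62 members, 52 had such a window. GTTAAT, searched on both strands, was present in 11 of these 52 genes (21.2%) and in 8.24% of all 27025 genes with a window, and 5 of the 11 are the near-identical Serpina1 copies. The letters TTGCNNAA, the form of a C/EBP site, were in 14 of the 52 (26.9%, against 12.2% of all). Among these 14 were the near-identical copies Serpina1a, Serpina1b, Serpina1d and Serpina1e. TTCNNNGAA, the form of a STAT site, was in 8 of the 52 (15.4%, against 9.55%). A match of letters is a description and not a site.

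Serpin transcripts made up 4.87% of the TPM in KO and 4.72% in WT, at 49004 and 46922 TPM. Serpina1e accounted for 86.1% of this difference in TPM, and without it the members held 3.62% in KO and 3.63% in WT. The abundance of the family came from few genes. An average of at least 1000 TPM was found for 7 members, at least 100 TPM for 15, at least 10 TPM for 20 and at least 1 TPM for 28. In the plot of levels, the open and filled points of most genes lie on top of each other.

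**Figure D1:**
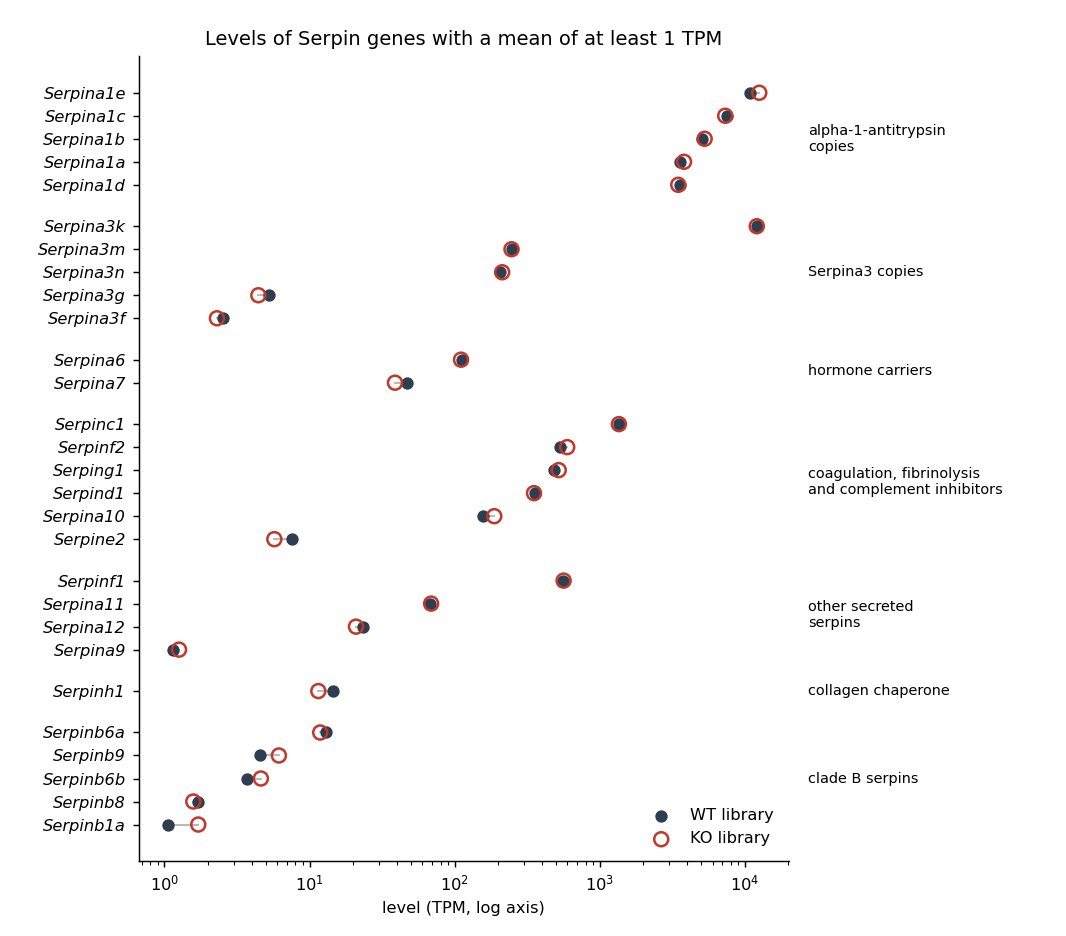
Level (TPM, log axis) of the 28 Serpin genes with an average of at least 1 TPM in the WT library (filled) and the KO library (open), grouped by role; each point is 1 pooled library. The highest genes are Serpina3k and Serpina1e, the lowest Serpina9 and Serpinb1a, and the points of a gene lie close together compared with the distances between genes.

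The other 34 members stayed under 1 TPM on average. The second table leaves out 17 of these, among them Serpinb5, Serpinb13, Serpinb3a to Serpinb3d, Serpinb9d to Serpinb9g and Serpini2, and their TPM ran from 0.02 to 0.08. Such values do not show expression, since Serpina1f is listed at 0.05 TPM in KO, where the authors' mean is 0. Another 9 had at most 3 estimated reads in each library, and 8 had more.

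No Serpin gene passed the fold rule in either direction. The rule asked for 1.4-fold or more, or 0.6-fold or less, on the scale log2((KO TPM + 1)/(WT TPM + 1)), which understates the change of low genes. Of the 28 members with an average of at least 1 TPM, 0 were up, where 1.21% of all 11623 such genes were up, and 0 were down, where 0.301% of all were down, 1.51% in either direction. At these background shares a count of 0 among 28 genes does not set the members apart. Their median log2 change was -0.001, beside -0.013 over all genes, with 14 above 0 and 14 below. Changes ran from -0.35 for Serpine2 to 0.40 for Serpinb1a, and 20 of the 28 (71.4%) lay within 0.2 of 0, beside 81.4% of all genes. At a weaker threshold of 1.2-fold, Serpinb1a and Serpinb9 were up (7.14% of members, 5.39% of all genes) and Serpine2, Serpinh1 and Serpina7 were down by the mirror of 1.2 (10.7% of members, 5.51% of all genes).

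For each gene, a 95% interval of the ratio of the authors' means was computed from estimated reads. These intervals cover counting error only, and the mean ratio can differ slightly from the TPM ratio. For all Serpin genes summed, the log2 ratio was 0.063 from TPM and 0.074 from the means. The intervals held 0 for 12 of the 28 members, lay above 0 for 10 and below 0 for 6, so that 57.1% did not hold 0, against 25.1% of all genes. The members are deeply covered, with a median of 3443 estimated reads in WT against 547 over all genes, and intervals narrow with depth. The share was not compared with that of genes of like depth. In the plot of changes, the intervals are narrowest for the most abundant genes and wide for the clade B genes.

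**Figure D2:**
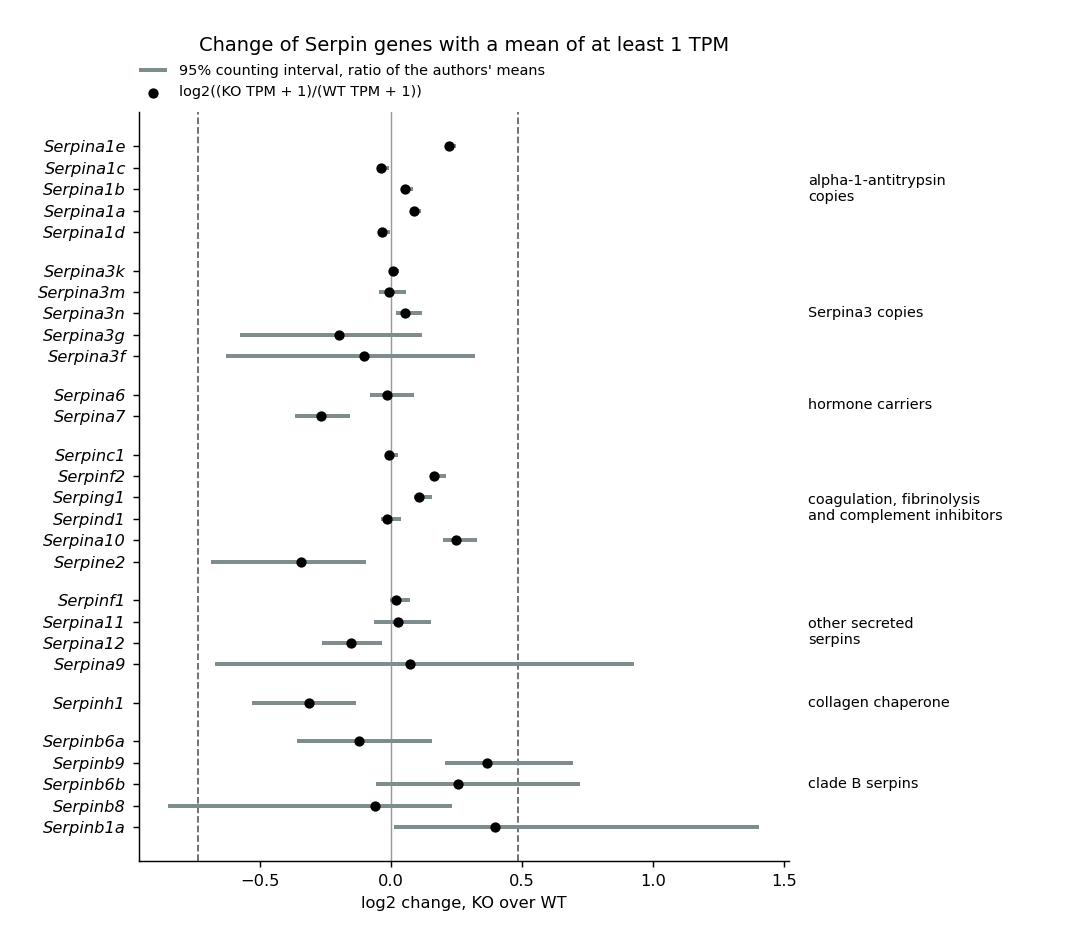
Log2 change of the 28 Serpin genes (points, from TPM + 1) with the 95% counting interval of the ratio of the authors' means (bars); dashed lines mark the folds 1.4 and 0.6. All points lie between the dashed lines. The bars wholly below 0 include those of Serpina7, Serpina12, Serpine2 and Serpinh1, and those wholly above include those of Serpina1e, Serpina10, Serpinb9 and Serpinb1a.

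The alpha-1-antitrypsin copies, mouse counterparts of the human inhibitor of neutrophil elastase, were the most abundant group. Serpina1e (chromosome 12, 103946931 to 103956897 on GRCm38) was at 12608.62 TPM in KO against 10815.75 TPM in WT, rank 14 and rank 17 among all genes. Its change of 0.22 on the log2 scale (1.17-fold, interval 0.23 to 0.25) was the highest of the group, on 213687 and 244586 estimated reads. The other abundant copies differed less and in both directions. Serpina1c was at 7341.96 TPM in KO against 7536.67 in WT, Serpina1b at 5296.43 and 5107.63, Serpina1a at 3818.69 and 3596.57, and Serpina1d at 3483.02 and 3570.29. Their log2 changes were -0.04 for Serpina1c and Serpina1d, 0.05 for Serpina1b and 0.09 for Serpina1a. The order of the copies by level, from Serpina1e to Serpina1d, was the same in both libraries. Serpina1f, a divergent copy, was at 0.05 and 0.06 TPM.

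Summed over all 6 copies, Serpina1 stood at 32549 TPM in KO against 30627 TPM in WT, a log2 ratio of 0.09 (95% interval from the authors' means 0.10 to 0.11). Serpina1e accounted for 93.3% of that difference, and without it the log2 ratio was 0.009. As shares of the column totals, which differ, the copies without Serpina1e held 1.98% in KO and 1.99% in WT. Within the sum of all 6 copies, Serpina1e made up 38.7% in KO and 35.3% in WT, while Serpina1c made up 22.6% and 24.6%. Serpina1c was lower in KO, with a difference of -194.71 TPM, as was Serpina1d, with -87.27 TPM, while Serpina1e was higher by 1792.87 TPM. The part that the division of shared reads had in these values was not tested.

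**Figure D3:**
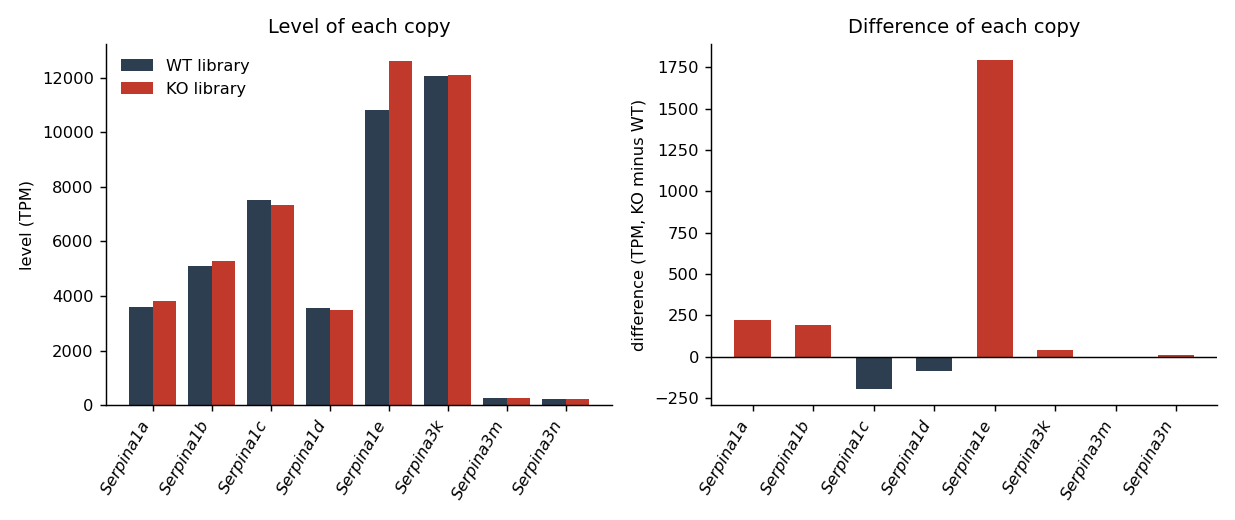
Left, level (TPM) of the Serpina1 and the abundant Serpina3 copies in the WT and KO libraries; right, the difference in TPM, KO minus WT. Serpina1e is higher in KO by 1792.87 TPM, and no other copy differs by more than 222.12 TPM.

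Among the Serpina3 copies, Serpina3k (contrapsin, chromosome 12, 104338486 to 104345739) held 96.3% of the sum in each library. It stood at 12117.39 TPM in KO against 12075.83 TPM in WT, rank 15 in both, a log2 change of 0.005 (interval 0.01 to 0.03). Serpina3m was at 246.95 TPM in KO against 248.69 in WT, with a log2 change of -0.01. Serpina3n, a secreted inhibitor known to be induced in liver during inflammation, was at 212.92 TPM in KO against 205.28 TPM in WT, with a log2 change of 0.05 (interval 0.02 to 0.12). The 11 copies summed to 12586 TPM in KO against 12539 TPM in WT, a log2 ratio of 0.005 (95% interval from the authors' means 0.01 to 0.03). As shares of the column totals, which differ, the 11 copies held 1.25% in KO and 1.26% in WT. Serpina3g, which acts inside blood cells, was at 4.44 and 5.25 TPM with an interval of -0.58 to 0.12, and Serpina3f at 2.30 and 2.55 TPM with an interval of -0.63 to 0.32. The remaining 6 copies had values of 0.03 to 0.53 TPM. One of them, Serpina3h, is annotated by RefSeq as a transcribed pseudogene although its symbol carries no -ps, and rested on 12.0 estimated reads in KO against 6.4 in WT.

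Several acute phase genes other than serpins were past the fold rule in these libraries. Of 24 whose mean reached 1 TPM, 8 were up and 0 down, beside 1.21% up and 0.301% down over all genes. The median log2 change of the list was 0.25, with 20 genes above 0 and 4 below. The list was chosen with earlier results of these data known. The study had itself reported raised mRNA of Saa1 and Saa2 in KO liver. Saa1, an apolipoprotein of the acute phase, stood at 495.52 TPM in KO against 54.88 TPM in WT (log2 change 3.15), and Saa2 had the highest change (3.69). Haptoglobin (Hp), at 2437.23 and 2030.82 TPM, had a log2 change of 0.26 and was not past the rule. The abundant fibrinogen genes Fga, Fgb and Fgg, at 0.097, 0.090 and 0.095, were not past it either and lay within the range of the serpins. With 1 library per genotype, the difference between the 8 genes that were up and the serpins has no replicate check. Pooled RNA does not show how many mice carry it.

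Serpins that carry hormones were level or lower in KO. Serpina6, which binds glucocorticoids in plasma, was at 110.80 TPM in KO against 111.93 TPM in WT (log2 change -0.02, interval -0.08 to 0.09). Serpina7, the thyroxine-binding globulin, whose gene is X-linked like Pgrmc1 (chromosome X, 139079249 to 139085236), was at 38.84 TPM in KO against 46.96 TPM in WT. Its log2 change of -0.27 (0.831-fold, interval -0.37 to -0.16) lay short of the fold of 0.6 and beyond the counting error.

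Inhibitors of coagulation, fibrinolysis and complement had a median log2 change of 0.05 over the 6 of 8 members with an average of at least 1 TPM, with 3 above 0 and 3 below. Serpinc1, antithrombin, the main plasma inhibitor of thrombin, stood at 1357.58 TPM in KO against 1364.55 in WT, rank 83 in both. Serpind1, heparin cofactor II, was at 352.94 TPM in KO against 356.65 in WT. The intervals of both genes held 0, at -0.01 to 0.03 and -0.04 to 0.04.

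Levels were slightly higher in KO for the other 3 abundant members. Serpina10, which inhibits activated coagulation factor X with protein Z as its cofactor, was at 187.75 TPM in KO against 158.21 TPM in WT, with a log2 change of 0.25 (1.19-fold, interval 0.20 to 0.33), the highest among members of at least 10 TPM. Its cofactor protein Z (Proz) had a log2 change of 0.12, at 176.14 and 161.95 TPM. That was the highest of the list of cofactors, receptors and clients, nearly level with vitronectin (Vtn, 0.119). Serpinf2, the inhibitor of plasmin, was at 597.63 TPM in KO against 533.41 TPM in WT (log2 change 0.16, interval 0.15 to 0.21). Serping1, the C1 inhibitor of complement and contact activation, was at 522.49 TPM in KO against 485.47 TPM in WT (log2 change 0.11, interval 0.09 to 0.16).

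Other members of this group were low. Serpine2, a tissue inhibitor of thrombin and urokinase, was at 5.72 TPM in KO against 7.54 in WT, with a log2 change of -0.35 (interval -0.69 to -0.10). Serpina5, under 1 TPM at 0.18 and 0.27 TPM, rested on 4 and 9 estimated reads, and its interval of -2.9 to 1.1 held 0. Endothelial markers were lower in KO, with sums of 251.97 TPM in KO against 276.14 in WT. Of these markers, 12 of 12 were below 0, where 45.8% of all genes were above 0. The part of endothelial cells in the values of Serpine2 and Serpina5 was not tested.

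Serpinh1, a chaperone that stays in the endoplasmic reticulum and folds procollagen, was at 11.50 TPM in KO against 14.54 TPM in WT, with a log2 change of -0.31 (interval -0.53 to -0.14). Of its procollagen clients, Col3a1 had a log2 change of -0.21 (23.14 TPM in KO, 26.86 in WT, interval -0.29 to -0.12), the lowest of its list. That of Col1a1 was -0.14 (interval -0.35 to 0.05) and that of Col1a2 0.07 (interval -0.06 to 0.23), and both intervals held 0. Stellate cell and fibroblast markers summed to 257.80 TPM in KO against 287.97 TPM in WT. Of these 12 markers, 8 were below 0 and 4 above, where 45.8% of all genes were above 0. Their part in the values of Serpinh1 and Serpine2 was not tested.

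Of the other secreted serpins, Serpinf1, the pigment epithelium-derived factor, was at 564.66 TPM in KO against 557.98 in WT, and Serpina11 at 68.92 and 67.68 TPM. Both intervals held 0. Serpina12 (vaspin) was at 20.91 TPM in KO against 23.39 in WT, with a log2 change of -0.16 (interval -0.27 to -0.04), and Serpina9 was at 1.26 and 1.15 TPM. Serpini1 (neuroserpin), at 0.36 and 0.34 TPM, was under the filter.

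Clade B serpins work mostly inside cells, many of them in leukocytes, and 22 of the 27 were under 1 TPM on average. Serpinb6a was the highest, at 11.85 TPM in KO against 12.98 in WT (interval -0.36 to 0.16). Serpinb9, which protects cells from granzyme B, was at 6.15 TPM in KO against 4.55 TPM in WT, with a log2 change of 0.37 (interval 0.20 to 0.70) on 279 and 276 estimated reads. Serpinb1a, an inhibitor of neutrophil proteases, was at 1.71 TPM in KO against 1.06 TPM in WT, with a log2 change of 0.40 (interval 0.012 to 1.404) on 41 and 34 estimated reads. It passed the fold of 1.4 with a pseudocount of 0.1 TPM (log2 change 0.64). Serpinb6b was at 4.62 and 3.71 TPM and Serpinb8 at 1.58 and 1.69 TPM, each with an interval that held 0.

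Markers of cells that could hold these transcripts were measured beside them. Of the 11 Kupffer cell markers in the table, 10 were above 0, where 45.8% of all genes were. These markers summed to 409.21 TPM in KO against 360.67 TPM in WT. Neutrophil markers were near the detection limit, with 3 of 9 above 1 TPM on average and sums of 9.96 and 9.06 TPM. The neutrophil proteases Elane, Ctsg and Prtn3 were at 0.09, 0.08 and 0.62 TPM in KO and 0.21, 0.06 and 0.67 TPM in WT. Prtn3 rested on 6 and 9 estimated reads and Elane on 0 and 2, and no reads could be estimated for Ctsg. The part of these cells in the values of Serpinb9 and Serpinb1a was not tested.

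Along chromosome 12, neighbours had positive as well as negative changes. In the plot by gene order, Serpina10 and Serpina1e have the highest changes, with changes from -0.04 to 0.09 between them. Between Serpina12 and Serpina5 lies Serpina4-ps1 (104077959 to 104086920), a transcribed pseudogene that the naming rule leaves out and that was chosen here after its values were seen. It stood at 93.06 TPM in KO against 147.69 TPM in WT, with a log2 change of -0.66 (0.633-fold, interval -0.74 to -0.56, on 1550 and 3283 estimated reads), larger in size than that of any member with an average of at least 1 TPM and short of 0.6. Its neighbour Serpina12 had a log2 change of -0.16, and Serpina5 was below 1 TPM.

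**Figure D4:**
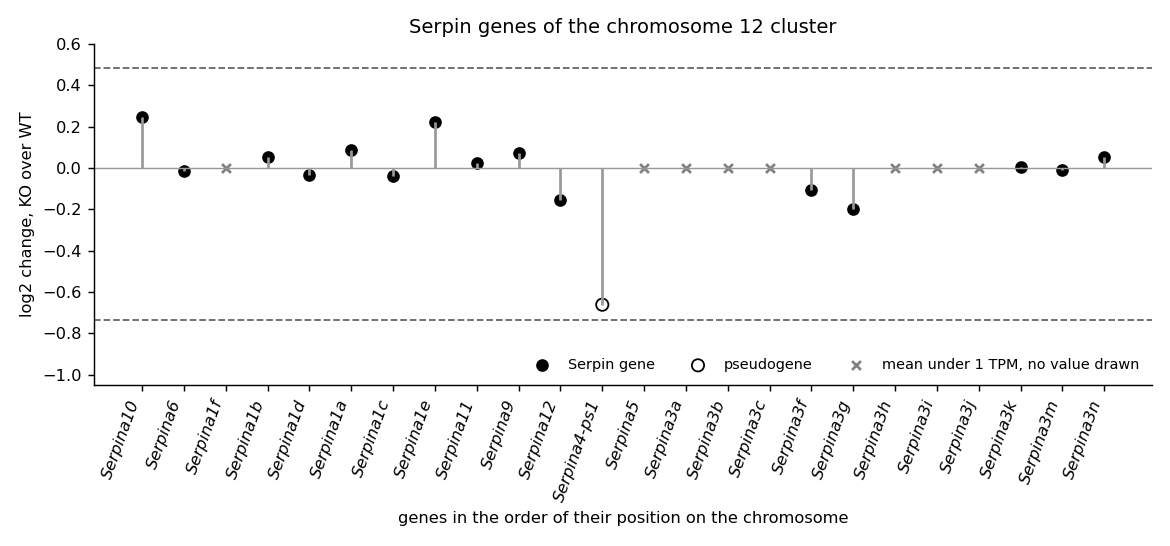
Log2 change, from TPM + 1, of the Serpin genes on chromosome 12 in the order of their position; filled points are genes, the open point is the pseudogene Serpina4-ps1, crosses at 0 mark genes with a mean under 1 TPM, for which no value is drawn, and dashed lines mark the folds 1.4 and 0.6. Serpina4-ps1, at -0.66, lies lowest and above the line of 0.6.

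Proteases that serpins inhibit were followed as a list of 27 genes. Of these, 19 had an average of at least 1 TPM, 0 were up and 0 down, and the median log2 change was 0.02. The list ran from -0.30 for urokinase (Plau), at 0.98 TPM in KO against 1.44 in WT, to 0.15 for coagulation factor VII (F7), at 56.62 and 51.01 TPM. Thrombin precursor (F2) was at 1181.18 TPM in KO against 1145.92 in WT. Cofactors, receptors and clients (14 of 15 at 1 TPM or more) had a median of -0.09 with 0 up and 0 down. Over all genes, 1.21% were up and 0.301% down, so counts of 0 do not set lists of this size apart.

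Other plasma protease inhibitors, most of them without the serpin fold, had a median log2 change of 0.04 over 18 of 21 genes. Of the 18, 15 were above 0, where 45.8% of all genes were. By the fold rule, 0 were up and 0 down, where 1.21% and 0.301% of all genes were. Itih4, an acute phase protein of the inter-alpha inhibitor heavy chain family, had the highest change (0.35), at 939.28 TPM in KO against 735.79 TPM in WT. Timp3, an inhibitor of metalloproteases in the matrix, had the lowest (-0.42), at 10.27 and 14.11 TPM. Angiotensinogen (Agt), a serpin by its fold and not by its symbol, was at 341.05 TPM in KO against 331.26 in WT, with a log2 change of 0.04.

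**Figure D5:**
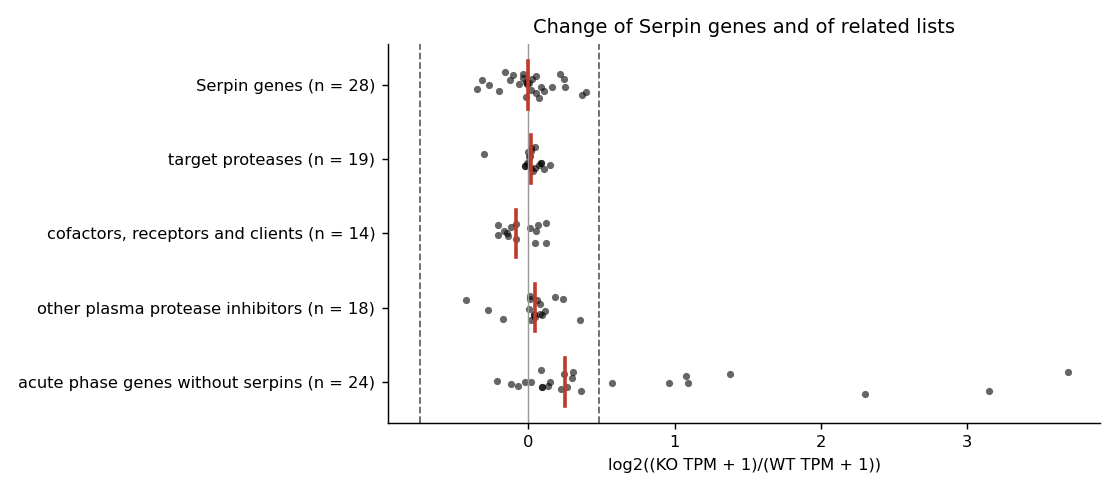
Log2 change of Serpin genes and of 4 gene lists chosen with earlier results of these data known. Each point is 1 gene with an average of at least 1 TPM, red lines are medians, and dashed lines mark the folds 1.4 and 0.6. Points beyond the dashed lines appear in the acute phase list alone, on the side of higher levels in KO.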

How the data were processed

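Total liver RNA, pooled from the mice of a genotype, was sequenced as 1 stranded, paired library per genotype. The authors ran RSEM 1.2.09 with Bowtie on mm10 (reads from CASAVA 1.8.2) and deposited posterior mean TPM per gene, with columns that sum to 1005325 in KO and 994702 in WT. The columns were not scaled to a common total, so log2 values near 0 can differ in sign from the change in share. The second deposited table holds, from EBSeq, a normalized signal per library (the authors' means, estimated reads divided by a size factor), beside fold changes and posterior probabilities, which were not used. Its columns carry no genotype and were taken as KO and WT from the order in the table's name and the study's own list of means. The most frequent positive value, 1.16 in KO and 0.860 in WT, was taken as 1 read. Within 0.02, 78.4% and 75.0% of values were whole reads, so no count test was run. Intervals are Clopper-Pearson at 95% from rounded reads.

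Called genes were 1.4-fold or more, or 0.6-fold or less, on log2(TPM + 1) with a mean of at least 1 TPM. These are the fold limits of the study, whose rule also asked for a posterior probability that was not applied here. Named genes were those with a mean of at least 10 TPM, called genes, the extremes of each role group and list, and Pgrmc1. Others were chosen after their values were seen. The values of 1 member under 1 TPM are not reported here. Members and lists were chosen with earlier results of these data known. Coding sequences came from GENCODE M21, aligned with MAFFT 7.526, gene coordinates from RefSeq. The fold, calls and interval were tested on simulated reads of well-covered genes, with folds of 2 and 0.5 built in. Low genes, folds near 1.4 or 0.6 and the division of shared reads were not covered. Scripts ran in Python 3.11.15 with scipy 1.17.1, pandas 2.3.3 and numpy 2.4.6, and plots were drawn in matplotlib 3.10.9.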

Additional observations from a re-analysis of the deposited data

How the results depend on the processing

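No paired analysis was possible because KO and WT are 1 pooled library each. For the same reason no replicate could be left out. Values were recomputed with 0.1 TPM added, with a stricter or no filter, from the authors' means, after centring, after scaling that left out the 50 highest genes, with other folds, with pseudogenes and with copies summed. Serpinb1a was the 1 member up with 0.1 TPM and the 1 member up with the authors' means. With 1.2-fold, 2 members were up and 3 down. No other alternative gave a called member. Over all genes, 141 were up and 35 down. These counts were 280 and 70 with 0.1 TPM, 62 and 17 for an average of 10 TPM or more, 296 and 80 with the authors' means, 45 and 13 with folds of 2 and 0.5, and 627 and 640 with 1.2-fold, and 118 were down with the mirror of 1.4.

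The log2 ratio of the Serpina1 sum was 0.103 with the authors' means, 0.101 after centring and 0.009 without its most abundant copy. That of the Serpina3 sum was 0.021, 0.019 and 0.016. That of all Serpin genes was 0.074, 0.076 and 0.082, where the gene left out was Serpina3k. With Serpina1e left out instead, the log2 ratio of all Serpin genes from TPM was 0.011. The cause was not tested. The median log2 change of members lay between -0.007 and 0.014 throughout. Of 124 values of named genes, 111 moved by less than their counting error and 13 by more. The sign turned for 5 values, of Serpina3m, Serpina6 and Serpinc1, all within 0.015 of 0 as reported. None of the alternatives scaled the full columns to a common total. Depth limits the clade B genes, and pooling limits the abundant ones.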
